A study of Canis lupus familiaris with 8 samples.

Results

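The untreated dog heart was described from 4 arrays, 1 for each of 4 control dogs, out of 8 arrays in the series. The members were chosen by their titles, which name them as control dogs, and no comparison with the other 4 dogs, given methionine in their drinking water for 2 weeks to raise blood homocysteine, was made. Both groups were male dogs of 23 to 27 kg. Breed, age, the heart chamber sampled and what the control dogs drank are not given in the sources used here. Total RNA from cardiac tissue was hybridised to an Affymetrix canine array, on which a probe set (a group of short DNA probes for 1 transcript) yields 1 signal, in arbitrary units on a linear scale. After 77 technical control probe sets were left out, 23836 probe sets were ranked by their mean signal over the 4 dogs. Of these, 10549 carried exactly 1 gene symbol, for 6540 genes, 138 carried several symbols and 13149 none. Each array stands for its own dog by its label, so differences between arrays mix animal and handling, and having 4 arrays limits the precision.

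The working heart muscle cell is filled with sarcomeres, in which myosin thick filaments pull on actin thin filaments when calcium binds troponin. Calcium is released from the sarcoplasmic reticulum through the ryanodine receptor and pumped back by SERCA, and the ATP for both steps comes mostly from mitochondria that burn fatty acids. Many of these proteins belong to families whose members are made in different muscles: one paralog in heart, another in fast skeletal muscle, another in smooth muscle. The design holds 1 group, so no comparison was tested, and every value below is a description. A rank by signal orders probe sets by brightness. It is not an order of transcript abundance, because probe sets bind their targets with different strength, and no signal was corrected for transcript length. How far probe sets for 1 and the same gene differ was therefore measured first and is the yardstick for gaps between paralogs. Among 1948 genes with more than 1 probe set outside the dimmest 20%, the brightest probe set had a median of 4.42 times the signal of the dimmest. The ratio was under 2 in 26.5% of these genes, over 10 in 30.5%, and its 90th percentile was 44.2.

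Contractile, ribosomal and mitochondrial genes filled much of the top of the ranking. The 30 brightest annotated genes, each taken by its brightest probe set, had mean signals from 23767 to 43788 units. They held 6 members of the sarcomere list (TPM1, MYL2, TNNC1, MYH7, TNNI3 and TCAP), 8 cytosolic ribosomal protein genes and 3 subunits of oxidative phosphorylation (ATP5F1B, NDUFA4 and COX5A). They also held the fatty acid binding protein FABP3, the calcium pump ATP2A2, the actin ACTA1, and 10 genes that lie in none of the lists of cell types and functions used here. The brightest was TPT1, the translationally controlled tumour protein, with signals of 58747, 48541, 35704 and 32160 units in controls 1 to 4. Controls 1 and 2 lay above controls 3 and 4. Of its 8 probe sets, 6 had means from 19957 to 43788 units and the dimmest had 46.0. Next came TPM1, alpha-tropomyosin, which winds along the thin filament and blocks myosin binding at rest, with 54498, 46970, 33969 and 32352 units. RPS29, a protein of the small ribosomal subunit, followed with 57326, 38213, 36129 and 34008 units, from a probe set whose probes can bind other transcripts.

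**Figure D1:**
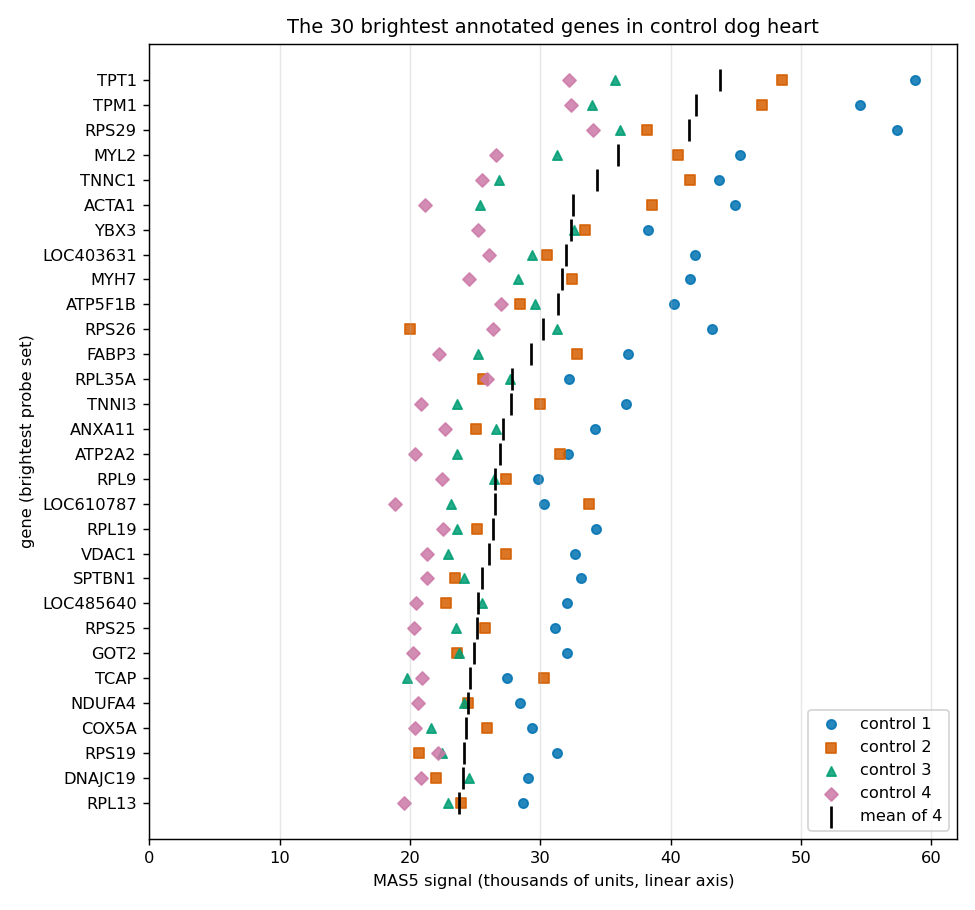
MAS5 signal of the 30 brightest annotated genes, on a linear axis, with 1 symbol per control dog and a bar at the mean of 4, genes ordered by that mean. Control 1 is the highest dog for 28 of the 30 genes and control 4 the lowest for 26.

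The order of the dogs was much the same for nearly all of these genes. Control 1 was the highest array for 28 of the 30 and control 2 for the other 2, while control 4 was the lowest for 26. The same held beyond annotated genes: among the 100 brightest probe sets control 1 was highest for 90 and control 4 lowest for 87. The coefficient of variation between dogs (CV, the SD divided by the mean) had a median of 0.203 over the 30 genes. When the 4 arrays were brought to 1 common distribution by quantile scaling, that median was 0.0794. MYH7, for example, had a CV of 0.229 as deposited and 0.033 after quantile scaling. Quantile scaling gives the same rank the same value on every array. A lower CV is therefore largely built in for genes chosen for their top rank, and no source of the spread was read from it. Over the 1000 brightest annotated genes the median CV was 0.199 as deposited and 0.183 after quantile scaling. The 100 brightest probe sets held 17.6%, 15.5%, 13.5% and 12.4% of the summed signal in controls 1 to 4, a mean of 14.7% ± 2.27 (SD, n = 4). Of these 100, 49 had 1 symbol, 12 several and 39 none. In 77 of them the probe set name carries one of the suffixes with which the maker marks probes that match several transcripts (52 with _s, 25 with _x). Signal from close relatives can therefore be included. Over all 23836 probe sets, 2164 carry _s and 544 carry _x. The choice of probe set decided much of the list: when each gene was taken by its median probe set, 12 of the 30 genes stayed in it, and when probe sets with a suffix were left out, 11.

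The sarcomere genes were bright from the thick filament to the Z-disc. Of 30 listed genes 21 had a probe set with 1 symbol, 14 of them in the brightest 5% of all probe sets (signals of at least 3792 units) and 18 in the brightest 20% (at least 563 units), with a median signal of 16588 units. Over all 6540 annotated genes, 608 lay in the brightest 5% and 2222 in the brightest 20%, and the median was 227 units. MYL2, the regulatory light chain of ventricular myosin, had 45295, 40535, 31266 and 26624 units, a mean of 35930 ± 8510 (SD, n = 4). A further MYL2 probe set, without suffix, had a mean of 35632. TNNC1, the calcium-binding subunit of the troponin of heart and slow muscle, had 43675, 41516, 26792 and 25492 units, with controls 1 and 2 high and the other two close together. TCAP, the titin cap of the Z-disc, was highest in control 2, at 30311 units, against 27435, 19729 and 20907 in controls 1, 3 and 4. The lowest of the 21 was LDB3, a Z-disc adaptor, at 63.3 units, and the thick filament crosslinker MYOM2 had 419.

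Cardiac paralogs of the contractile proteins were bright and most of their skeletal muscle relatives dim. Of 8 listed sarcomeric heavy chains 4 were measured, and MYH6, the other cardiac heavy chain, was not among them. MYH7, the slow or beta myosin heavy chain, had 41458, 32418, 28320 and 24557 units. Its probe set carries the _s suffix, so signal from close relatives can be included. The fast skeletal heavy chains MYH1, MYH2 and MYH4 had means of 53.9, 33.8 and 3.13 units. For reference, 24 genes of liver, gut, pancreas, brain and retina measured on the same arrays ranged from 6.504 to 299 units with a median of 57.1, so MYH1 and MYH2 lay within that range and MYH4 below it. TNNI3, the cardiac inhibitory troponin, had 36542, 30005, 23635 and 20831 units, also on a probe set with the _s suffix. Its fast skeletal paralog TNNI2 had 99.7, 33.5, 145 and 102, and 2 of 3 listed troponin I genes were measured. TNNC2, the fast paralog of TNNC1, had a mean of 162 ± 44.6 (SD, n = 4). The cardiac alpha-actinin ACTN2, with 20005, 19248, 12848 and 14251 units, stood beside 91.6 for the widely made ACTN1. Among the measured members, the cardiac one was the brightest in every dog in all 4 families. TNNI2, TNNC2 and ACTN1 also lay within the range of the genes of other organs, so no fold was formed against them.

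For troponin T and tropomyosin, the member next in brightness lay above the genes of other organs. TNNT2, the cardiac troponin T, had 12425, 23475, 7179 and 9684 units, so control 2 stood well above the rest (CV 0.545). TNNT1, the slow skeletal form, had 480, 1243, 356 and 620 units, and control 2 was again the highest. TNNT2 remained between 15.6 and 25.9 times as bright as TNNT1 in each dog. TPM1 had a mean of 41947 units against 4036 for TPM4, 1828 for TPM3 and 923 for TPM2, and this order was the same in all 4 dogs. Control 2 had the lowest signal of TPM2, TPM3 and TPM4, at 504, 912 and 1808 units, and the next to highest of TPM1. The 10.4-fold gap of TPM1 over TPM4 was above the median but under the 90th percentile of single genes.

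For actin, the brightest probe set did not belong to the cardiac gene. The skeletal alpha-actin ACTA1 had 44938, 38565, 25357 and 21175 units, and the cardiac alpha-actin ACTC1 had 27841, 20272, 21103 and 18971. The ranges overlapped, and the ratio of the means, 1.47, was smaller than the median within single genes. Both of these probe sets carry the _s suffix, and the proteins are close relatives. Of the 3 other ACTA1 probe sets, another with the suffix had a mean of 30632, while those without it had 1549 and 529. No order of the sarcomeric actins was read from these data. The cytoskeletal actin ACTB had 20396, 24684, 13194 and 13733 units on its brightest probe set and a mean of 6.86 on its dimmest.

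The myosin light chains gave values for muscle of different kinds. MYL3, the ventricular essential light chain, had 22441, 23836, 13604 and 16144 units, so MYL2 was between 1.65 and 2.30 times as bright in the 4 dogs. The ratio of their means, 1.89, lies under the single-gene median. MYL9 of smooth muscle and MYL6 of smooth muscle and non-muscle cells had means of 9313 and 6962 units. MYL7, the regulatory light chain of atrial muscle, had 3682, 8411, 1412 and 2415 units. MYL4, the essential light chain of atrial and fetal muscle, had 2592, 2378, 4193 and 702 units. Control 2 was the highest dog for MYL7 and control 3 for MYL4, so the 2 atrial chains did not rank the dogs alike. Without control 2 the mean of MYL7 was 2503 units in place of 3980. Each has 1 probe set, with a suffix. MYL1 and MYL5 had 244 and 16.3 units.

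Calcium release and reuptake showed the cardiac members bright. ATP2A2, the SERCA2 pump, had 32138, 31504, 23594 and 20365 units on its brightest probe set, and controls 1 and 2 were again the higher pair. ATP2A1, the fast skeletal SERCA1, had 372, 204, 367 and 484 units and was lowest in control 2. The 9 other ATP2A2 probe sets had means from 57.3 to 3037 units, so the 75.4-fold gap between the 2 genes rests on 1 probe set of ATP2A2. RYR2, the cardiac ryanodine receptor, had 26930, 19599, 18340 and 18239 units, with control 1 apart from the rest. RYR1, its skeletal paralog, had a mean of 38.1 ± 25.7 units (SD, n = 4). S100A1, a calcium sensor that binds both SERCA2 and RYR2, had 4902, 4983, 4659 and 4873 units, and was among the 12 least variable of the 1000 brightest annotated genes. The probe set of the sodium-calcium exchanger SLC8A1 had 41.6 ± 47.8 units (SD, n = 4) and 19.0 without control 1, within the range of the genes of other organs, so no level was read for it. CALM2 and CALM3, 2 of the genes for calmodulin, had 11530 and 466 units. In all 9 of 14 measured calcium handling genes lay in the brightest 20%, with a median of 1959 units.

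**Figure D2:**
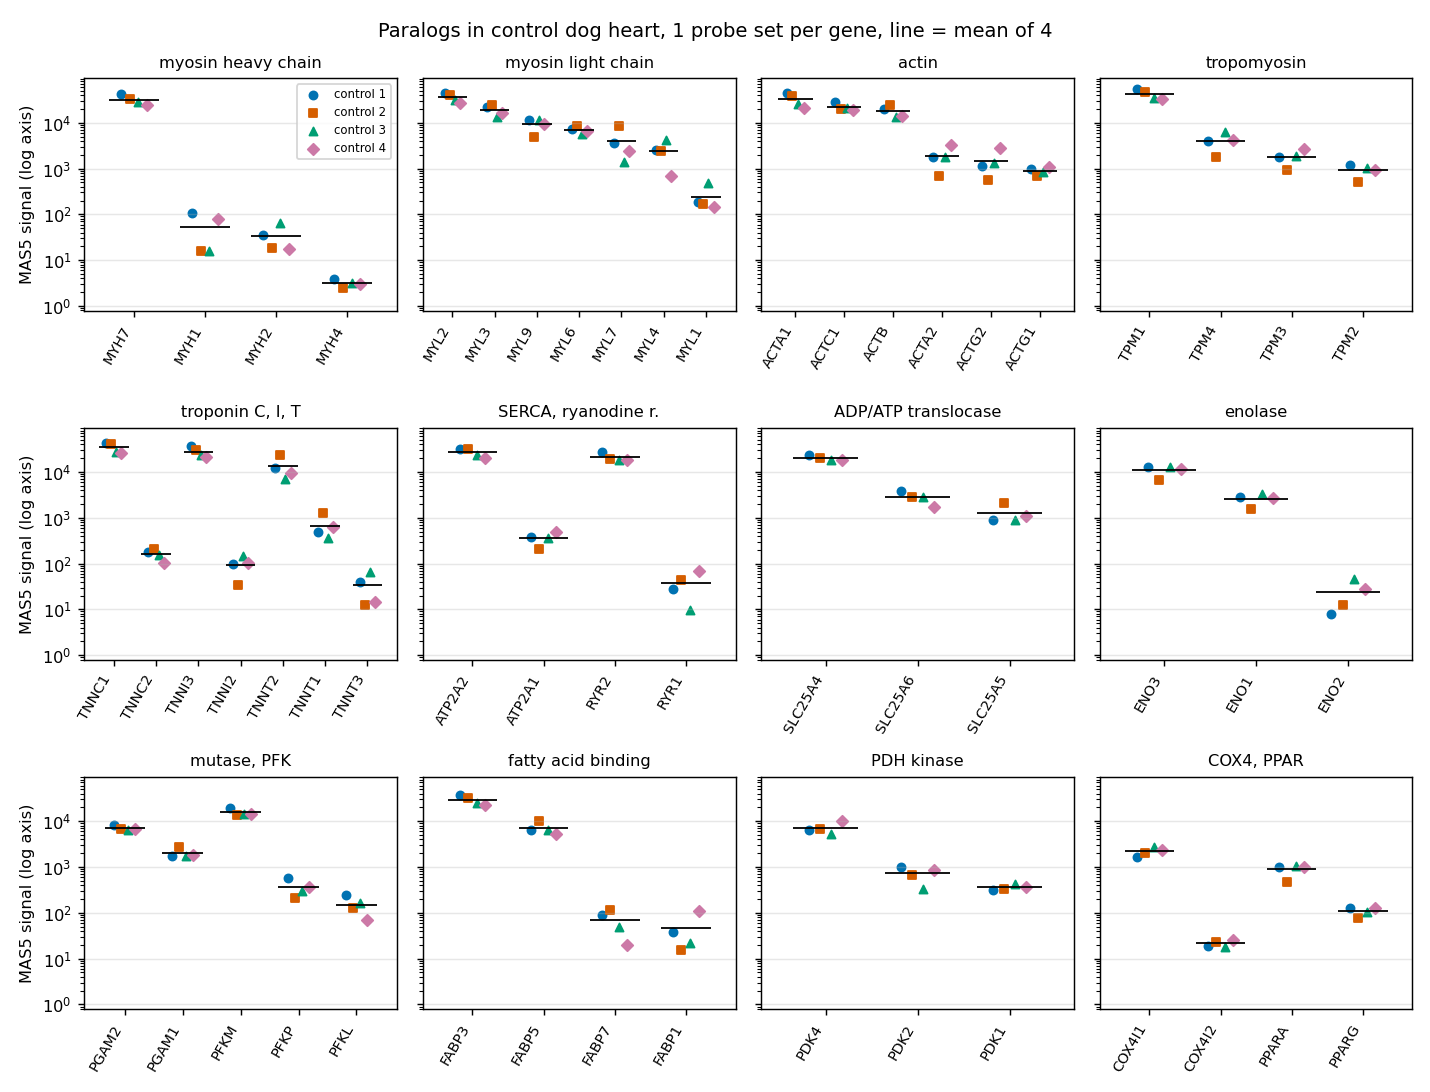
MAS5 signal on a log axis for members of paralog families, 1 symbol per control dog and a line at the mean of 4, each gene by its brightest probe set. MYH7, TNNC1, TNNI3 and RYR2 have means of 20777 units or more and MYH1, TNNC2, TNNI2 and RYR1 of 162 or less, while ACTA1 and ACTC1 overlap.

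Of 54 families listed, 37 had at least 2 measured members. In 29 of these the same member was brightest in all 4 dogs, and in 23 the whole order was the same. No such count was made for sets of unrelated genes, so these counts were not read as a trait of paralogs. The gap between the brightest member and the next was above the single-gene median of 4.42 in 16 families. In 9 of these the next member did not lie above the genes of other organs, so the size of the gap was not read: the myosin heavy chains, troponin C, troponin I, the alpha-actinins, the ryanodine receptors, lactate dehydrogenase, cytochrome oxidase subunit 4, the PPAR receptors and nitric oxide synthase. The other 7 were the tropomyosins, troponin T, the SERCA pumps, the ADP/ATP translocases, the phosphofructokinases, the pyruvate dehydrogenase kinases and the calmodulins. Of these, the SERCA pumps alone passed the single-gene 90th percentile, on 1 of the ATP2A2 probe sets. In 8 families the brightest member differed between dogs, among them the small heat shock proteins, peroxiredoxins and isocitrate dehydrogenases. With probe sets that carry a suffix left out, 32 families could be compared and 24 had the same brightest member in all dogs.

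Among enzymes that turn over ATP and sugars, the muscle isozyme was the brighter member in the translocases, phosphofructokinases, enolases and phosphoglycerate mutases. SLC25A4, the ADP/ATP translocase of heart and skeletal muscle, had 23101, 20268, 18429 and 18092 units (CV 0.115). SLC25A6 and SLC25A5 had means of 2805 and 1250 units, and the order of the 3 was the same in every dog. CKMT2, the creatine kinase of muscle mitochondria, had 18760, 16263, 16751 and 17585 units, with a CV of 0.063. PFKM, the muscle phosphofructokinase, had 19615, 13628, 14198 and 14547 units, against means of 362 for PFKP and 151 for PFKL. All 3 PFKM probe sets, the dimmest with a mean of 5080, were above both. ENO3, the muscle enolase, had 12755, 6647, 12741 and 11372 units, and ENO1, the widely made form, 2776, 1562, 3244 and 2692. Control 2 was lowest for both, and the ratio stayed between 3.93 and 4.59 in the 4 dogs, although it lies under the single-gene median. PGAM2, the muscle phosphoglycerate mutase, had a mean of 7070 units and PGAM1 2018, a ratio of 3.50 that also lies under that median. PYGL, the liver glycogen phosphorylase, had 736, 347, 1198 and 939 units, and the muscle form PYGM 270, 790, 196 and 226, so PYGM was the brighter in control 2 alone. Without control 2 its mean was 231 units in place of 371. The ranges of PYGL and PYGM overlapped, and the ratio of their means, 2.17, lies under the single-gene median, so no order was read for them. The hexokinases HK1 and HK2, with means of 57.4 and 23.8 units, lay within the range of the genes of other organs, and no order was read. LDHA, the lactate dehydrogenase subunit of fast muscle, had 12702, 7461, 14370 and 12634 units. The only LDHB probe set with 1 symbol had 21.0 ± 14.5 units (SD, n = 4), in the dimmest 20%. A pair of probe sets that list LDHB together with other genes had means of 31292 and 25615 units, above LDHA. Their signal cannot be assigned to 1 gene, so no order of the 2 subunits was read.

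Fatty acid handling was led by FABP3, the fatty acid carrier of heart cytosol, with 36730, 32823, 25232 and 22222 units. FABP5, a form found in skin and fat among other tissues, had 6547, 10081, 6493 and 5141 units. FABP7 and FABP1, of brain and liver, had 68.9 and 46.0, the latter 25.4 without control 4. ACADM, which starts the oxidation of medium-chain fatty acids, had 28293, 26849, 18736 and 18890 units, and of 24 measured genes of fatty acid oxidation 12 lay in the brightest 5%. PDK4, the kinase that shuts pyruvate dehydrogenase when fat is burnt, had 6282, 6921, 5341 and 9952 units and was highest in control 4. PDK2 and PDK1 had means of 722 and 360 units, and PDK4 was above both in each dog. PPARA, the nuclear receptor that drives fatty acid genes, had 1005, 481, 1038 and 1014 units, with control 2 apart at the low end. PPARG, the fat cell paralog, had a mean of 109 ± 24.1 (SD, n = 4). Of 4 listed glucose transporters 3 were measured, and SLC2A4 was not among them. SLC2A1 and SLC2A3 had 2093 and 902 units, and SLC2A2 was the dimmest.

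Mitochondrial genes were bright as a class. Of 52 measured subunits of oxidative phosphorylation 40 lay in the brightest 5% and 50 in the brightest 20%, with a median of 10240 units and a median CV of 0.192, close to the 0.199 of the 1000 brightest annotated genes. ATP5F1B, the catalytic beta subunit of ATP synthase, had 40271, 28434, 29572 and 26980 units. VDAC1, the pore of the outer membrane, had 32679, 27345, 22893 and 21272. COX4I1, a subunit of cytochrome oxidase, had a mean of 2211 units against 21.4 for COX4I2, its paralog known from lung. COX6A2, the heart and skeletal muscle form of subunit 6A, had 58.5 units on the brighter of 2 probe sets, and NDUFC1 of complex I had 115. These were the 2 members outside the brightest 20%. Of 24 measured genes of pyruvate oxidation and the TCA cycle 14 lay in the brightest 5%. The 3 subunits of a mitochondrial isocitrate dehydrogenase, IDH3A, IDH3B and IDH3G, had means of 13667, 11909 and 9608 units. Their order was not the same in all dogs. In control 2 the signals were 14507, 5315 and 5392, whereas in control 4 they were 11484, 14320 and 10707.

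Protective proteins were also bright. Of 18 measured heat shock proteins and chaperones 9 lay in the brightest 5%, with a median CV of 0.178. CRYAB, the small chaperone alpha-B crystallin that binds desmin and titin, had 24790, 21151, 19989 and 20740 units. HSPB8, another small heat shock protein, had 21059, 21421, 18196 and 17080, so the ranges of the 2 overlapped. HSPA8, the constitutive HSC70, had 13153, 12184, 13121 and 13547 units (CV 0.044). The mitochondrial and peroxisomal peroxiredoxin PRDX5 and the cytosolic PRDX6 had means of 14880 and 12946 units, with overlapping ranges. SOD1, the cytosolic copper-zinc superoxide dismutase, had 5681, 3249, 6345 and 6409 units, and SOD2, the mitochondrial manganese form, 1094, 2062, 1172 and 1207. Control 2 was the lowest dog for SOD1 and the highest for SOD2. Of the nitric oxide synthases, NOS3 had 24474, 16233, 10852 and 8351 units on 1 probe set, and its 2 other probe sets had means of 435 and 31.6. NOS1 and NOS2 had 113 and 82.9. Since the 3 NOS3 probe sets differ so far, no level of NOS3 was read from the brightest.

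The array also carries many probe sets for some long transcripts, and these show how far 1 gene can spread. TTN, the giant titin spring that spans from Z-disc to M-line, had 20 probe sets with means from 19594 down to 23.6 units, 4 of them above 1000. On the brightest, the dogs had 24207, 16204, 19238 and 18725 units, and control 2 was the lowest. On 12 of the 20, control 2 was the highest dog. The 6 MYH7 probe sets ran from 31688 to 118 units and the 4 RYR2 probe sets from 20777 to 246, with control 2 the highest dog on 3 of each. The same was seen over the 1948 genes with several probe sets. In control 2 the dimmer probe sets stood higher, relative to the mean of the dogs, than the brightest probe set of the gene in 66.2% of genes, against 47.3%, 36.9% and 42.6% in controls 1, 3 and 4. The array's own probe sets for the ends of transcripts also set control 2 apart. The ratio of 3' to 5' signal of actin was 0.378 in control 2 and 1.93, 2.49 and 1.44 in controls 1, 3 and 4, and that of GAPDH was 1.46 against 3.76, 3.25 and 3.13. The part of transcript ends in the gene values of control 2 was not tested. GAPDH itself, on its own probe set, had 11746, 19076, 9367 and 8620 units and was highest in control 2.

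**Figure D3:**
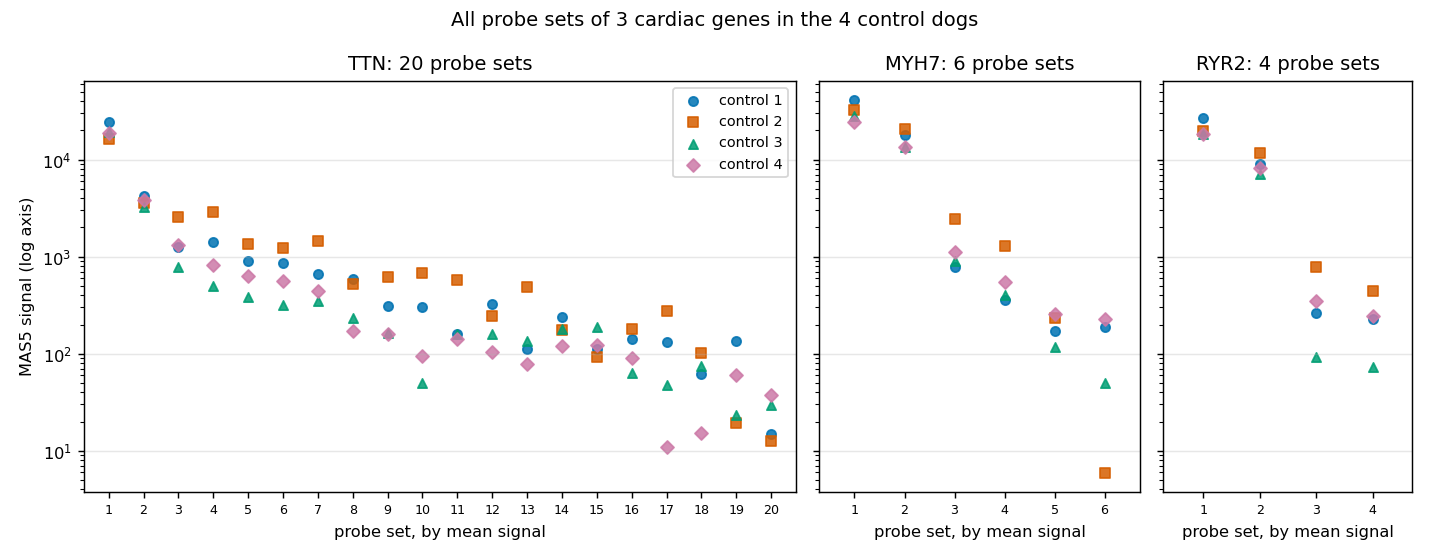
MAS5 signal on a log axis of every probe set of TTN (20), MYH7 (6) and RYR2 (4), ordered by mean signal along the horizontal axis, 1 symbol per control dog. Signals of 1 gene fall from 19594 to 23.6 units for TTN, and control 2 is the highest dog on many of the dimmer probe sets.

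Marker genes fitted the label of cardiac tissue. Of 24 cardiomyocyte markers 15 were measured, 12 in the brightest 5% and 14 in the brightest 20%, with a median of 20305 units. Of 5 measured ventricular markers, MYL2, MYH7, MYL3 and FHL2 lay in the brightest 5%, and the potassium channel KCNJ2 had 67.7 units. The 5 measured atrial markers all lay in the brightest 20%, from 972 units for the connexin GJA5 to 8476 for the peptide-processing enzyme PAM. Ventricular and atrial markers were thus both measured, and the chamber was not read from them. GJA1, connexin 43 of working myocardium, had 245, 674, 96.6 and 240 units on its only probe set, 194 on average without control 2 in place of 314. Endothelial markers had a median of 1250 units over 6 genes, with VWF, the clotting factor carrier of endothelial granules, at 2171 ± 272 (SD, n = 4). PECAM1 had 19334 units on a probe set with an _x suffix, whereas 4 of its 7 probe sets had means from 106 to 284. Fibroblast markers had a median of 1253 units over 8 genes, led by the matrix proteoglycan DCN at 10676, and smooth muscle and pericyte markers 1232 over 7. Macrophage markers had a median of 647 units over 12 genes, led by the lysozyme LYZ at 2407. Lymphocyte markers had a median of 106 units over 6 genes, none of them in the brightest 20%. In bulk tissue fewer cells of a type and less RNA per cell cannot be told apart.

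Transcription factors and receptors were dimmer than structural genes, but the former lay near the level of all annotated genes. The 7 measured cardiac transcription factors had a median percentile of 66.7 among all probe sets, the 15 measured receptors for hormones and transmitters 51.0, and all annotated genes 68.1. ANKRD1 and MEF2C led the former at 2406 and 2074 units, and the endothelin receptor EDNRA the latter at 1282. Ion channels had a median of 302 units over 10 genes, with the potassium channel KCNA5 at 1578. Skeletal muscle genes had a median percentile of 49.5 over 11, with ACTA1 the 1 member in the brightest 20%. Of 31 lists with a measured member 20 had a median percentile above that of all annotated genes.

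**Figure D4:**
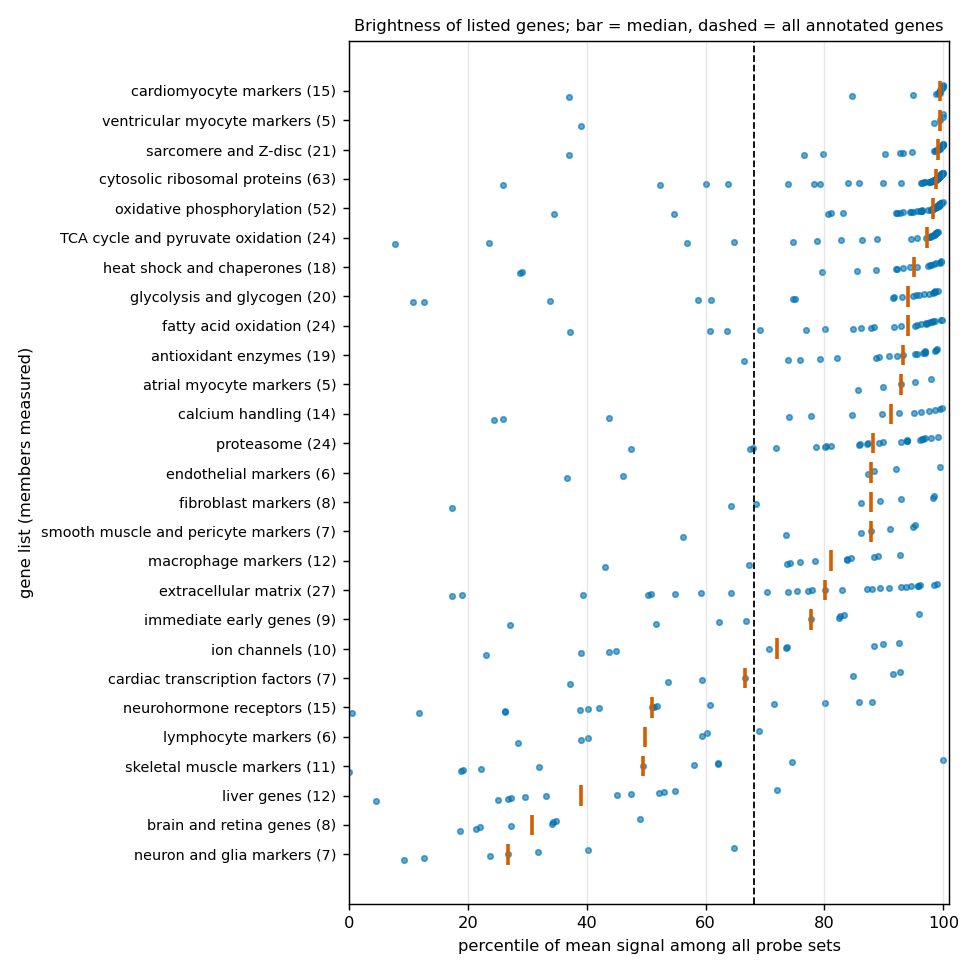
Percentile of mean signal among all 23836 probe sets for each measured member (points) of the lists with at least 5 members, each gene by its brightest probe set, with the list median (bar) and the median of all annotated genes at 68.1 (dashed line). Cardiomyocyte, sarcomere, ribosomal and oxidative phosphorylation genes crowd at the bright end, and genes of liver, brain and retina lie below the dashed line with few exceptions.

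The CV between the 4 arrays was higher on dim probe sets than on bright ones, though not highest on the dimmest. The median CV was 0.617 in the probe sets up to 19.9 units and 0.841 in those from 19.9 to 34.96 units. It was 0.207 in those from 1629 units up and 0.468 over all. Across probe sets, the Pearson correlation of log2 signals between arrays was 0.944 for controls 3 and 4, 0.923 to 0.924 for control 1 with those, and 0.900 to 0.908 for control 2 with the other 3, a description over 23836 probe sets that share the same arrays. Without control 2 the median CV was 0.383. Among the 1000 brightest annotated genes, 436 ranged by less than 1.5-fold between the 4 dogs and 21 by more than 4-fold.

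**Figure D5:**
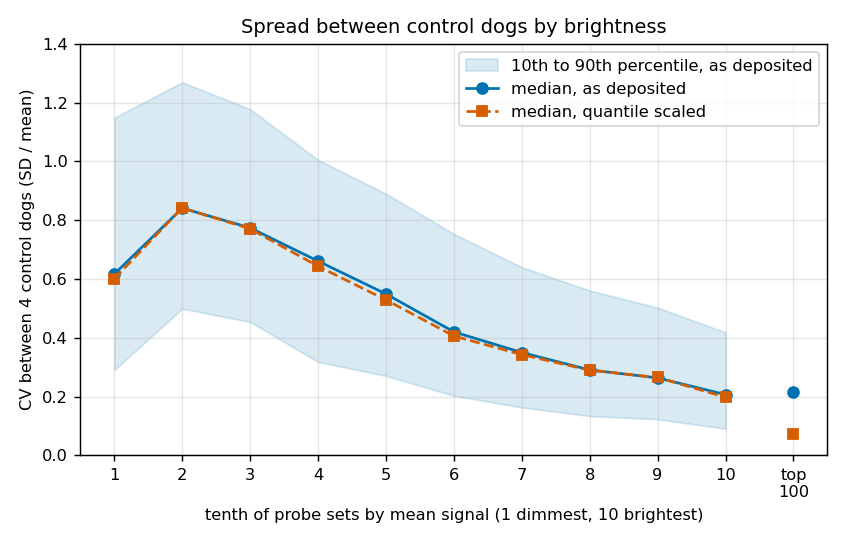
Median CV between the 4 control dogs (SD divided by mean) in each of 10 equal bins of probe sets by mean signal, as deposited (circles, shading from the 10th to the 90th percentile) and after quantile scaling (squares), with the 100 brightest probe sets at the right. The median is 0.617 in bin 1 and falls from 0.841 in bin 2 to 0.207 in bin 10. After quantile scaling it is 0.0721 in place of 0.216 in the top 100.

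The 12 bright genes of lowest CV had different roles. MRPL33 of the mitochondrial ribosome had 6162, 5831, 6045 and 6031 units (CV 0.023), and the chromatin protein HMGN1 7790, 8200, 7817 and 8014 (CV 0.024). Among the 12 genes of highest CV in the same 1000 genes, control 2 was the highest or the lowest dog in 10, against 75.1% of all 1000. MAP1LC3A, a protein of autophagosome membranes, had 1367, 8742, 1008 and 2235 units (CV 1.09), a mean of 3338 that was 1537 without control 2. The kinase MAP3K15, with 1666, 6178, 1415 and 1855 units, and the splicing kinase CLK1, with 2242, 6278, 2182 and 2376, were also highest there. Without control 2 the mean of MAP3K15 was 1645 in place of 2779. CLU, the secreted chaperone clusterin, was lowest there, with 3785, 984, 5820 and 7732 units. MORF4L1, a chromatin protein, fell into a high and a low pair, with 8659 and 7801 in controls 2 and 3 and 1645 and 1097 in controls 1 and 4. LGALS2, a sugar-binding galectin, had 17084, 11192, 4015 and 2230 units.

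Smooth muscle and matrix genes also differed between the dogs. Of the 7 measured smooth muscle and pericyte markers, 5 were lowest in control 2, where 33.7% of all annotated genes were lowest, and 4 were highest in control 4, where 19.1% were. ACTA2, MYH11 and TAGLN did both. The smooth muscle actin ACTG2, which is not in the list, did so on its brightest probe set. That probe set and the one of ACTA2 both carry the _s suffix, so they were not read as separate cases. The next brightest ACTG2 probe set, without suffix, had 672, 793, 522 and 1157 units and was lowest in control 3. SMTN, MYLK and DES were highest in controls 3, 1 and 2, and KCNJ8 and DES were lowest in controls 1 and 4. MYH11, the smooth muscle myosin heavy chain, had 857, 387, 1607 and 2078 units, and ACTA2, smooth muscle alpha-actin, 1771, 684, 1791 and 3329. For the list of smooth muscle and pericyte markers the median log2 deviation from the mean of the dogs was -0.77 in control 2 and 0.35 in control 4, and -0.78 and 0.32 after quantile scaling. Over all annotated genes it was -0.02 and -0.01. Other lists were low in control 2 too: the median was -0.41 for skeletal muscle markers and -0.38 for antioxidant enzymes, of which 12 of 19 were lowest there. Control 2 is the dog with the low 3' to 5' ratios. The collagens COL1A1 and COL1A2 were lowest in control 4, where COL1A1 had 952 units against 2086 to 4038 in the other dogs and COL1A2 452 against 1638 to 1921. Of 27 measured matrix genes 13 were lowest in control 4, or 48.1%, against 24.2% of all annotated genes, and 10 were lowest in control 2. The part of RNA quality in these differences was not tested. Subunits of the potassium current and of calcium release also varied: KCNIP2, a partner of the transient outward channel, had 1261, 1005, 439 and 2560 units. FKBP1B, which binds RYR2, had 1813, 341, 561 and 3568, a mean of 1571 that was 905 without control 4.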

How the data were processed

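The authors deposited 1 intensity per probe set, not log-transformed, and the submitters' processing notes name MAS5 without giving, in the sources used here, a version. With 2% of values trimmed at each end, every array has a mean of about 500.1 units, and none was rescaled. Neither the scans nor the presence calls of the software were analysed here. Symbols come from the platform annotation. Of the 10549 probe sets with 1 symbol, 10046 were found in RefSeq's gene list. No probe was aligned, and no coordinates or sequences are given.

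Means, SDs and CVs of linear signals were computed in Python (3.11.15) with pandas (2.3.3) over 4 arrays. Log2 deviations used log2(value + 21), 21 being the 20th percentile of signals. The spread calculation was checked on data simulated from the mean signals of these arrays: of 23836 probe sets 200 were made variable, and 141 of those came among the top 200. All other simulated probe sets had the same low CV at every brightness. On the real arrays the median CV rose to 0.841 among dim probe sets, so this recovery does not carry over to them. Members and lists were chosen with earlier results of these data known. The rule for genes to name took the 30 brightest genes, all family members, the 4 brightest and 2 dimmest of each list, and the 12 genes of highest and 12 of lowest CV among the 1000 brightest, 276 in all. Genes named outside it were chosen after their values were seen. Alternatives were other scalings, other averages over dogs, each dog left out, other filters and other choices of probe set per gene. The lists of red blood cell and mitochondrially encoded genes had no measured member.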

Additional observations from a re-analysis of the deposited data

Results flagged for a closer look

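Of 129 measures checked (125 genes and 4 array values), 13 had 1 dog far from the other 3 by Dixon's criterion for 4 samples. Chance flags about 5% of groups, but that rate does not hold for the 11 genes that were named for their high or low CV between these dogs, 3 of which are among the 13 (CLK1, MAP3K15 and MAP1LC3A). Of the 114 other genes, 10 were flagged, and some of those were named after their values were seen. The share flagged over all annotated genes was not computed, so the count was not read as a result about these genes. The value given is the gap to the nearest other dog as a part of the whole range. Control 2 was the dog apart in 10 genes, and it was the highest or lowest dog in 63.9% of all annotated genes. It was high for CLK1 (0.953), CALM2 (0.909), MAP3K15 (0.908), PGAM1 (0.899), SOD2 (0.883), PYGM (0.876) and MAP1LC3A (0.841). CALM2, for example, had 16380 units there against 9671 to 10282 in the others. It was low for SMTN (0.955), with 1670 units against 4632 to 4772, for PPARA (0.941), with 481 against 1005 to 1038, and for IDH3G (0.839), with 5392 against 10660 to 11672. Control 1 was high for PFKM (0.846) and RYR2 (0.844). Control 3 was high for MYL1 (0.863), with 476 units against 144 to 189.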

How the results depend on the processing

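Of the 30 brightest genes, 28 to 30 stayed in the list under other scalings or averages, without any 1 dog, and with probe sets in RefSeq's gene list alone. Taking the median probe set of each gene kept 12 of the 30, and leaving out probe sets with a suffix, an alternative chosen after seeing the data, kept 11. With the median probe set, 107 of the 276 named genes moved by more than the SD between dogs. Leaving out 1 dog moved the mean of 22 of the 276 by over 1.5 times, at most 2.86 times, for OGDH. The ratio of the brightest to the dimmest probe set of a gene, 4.42, was 5.51 with no filter on dim probe sets. The median CV of 0.468 was 0.330 without the dimmest 40% of probe sets and 0.383 to 0.447 with 1 dog left out, the lowest being without control 2. Families with the same brightest member numbered 29 to 33 with 1 dog left out. A member brightest in all dogs stays so with 1 left out unless another probe set is chosen, so this count could hardly fall. Lists above the median of all genes numbered 19 to 20 under the alternatives run. The list medians themselves moved more: 25 of 31 by more than the SD between dogs with the median probe set, 4 with the median over arrays, and 1 to 4 with 1 dog left out. Dim signals limit what can be read, since the median CV was highest from 19.9 to 34.96 units. No paired analysis was possible because only 1 group was described and its dogs share no numbers with the other group.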
